A study of Homo sapiens with 9 samples.

Results

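The MYC, MAX and MXI1 network is a set of 10 basic helix-loop-helix leucine zipper genes, and its RNA levels were followed in hypoxic head and neck cancer cells after knockdown of GATA3 or of HIF-1α. The members were MYC, MYCN, MYCL, MAX, MXI1, MXD1, MXD3, MXD4, MNT and MLX. Every probe of the array whose RefSeq transcript belongs to one of these symbols was taken, which gave 20 probes on 29 spots, out of 58201 probes, 60901 spots and 47753 gene names on the array. All 10 genes were measured, with 1 probe each for MYC and MYCN, 3 each for MAX and MXI1, and 2 for each of the others. Probes were taken by symbol and not by their values, but the members were chosen with earlier results of these data known.

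The cells were OEC-M1, an established cell line from a human head and neck squamous cell carcinoma. All 9 arrays came from cells kept at 1% O2 for 18 h and collected 72 h after transfection of siRNA, so that no normoxic sample enters any comparison. Of these, 3 were given the control siRNA (si-Control), 3 an siRNA to GATA3 and 3 an siRNA to HIF1A, the gene of HIF-1α. On the arrays each target was knocked down with 1 siRNA sequence in 1 cell line, so effects of the siRNA other than on its target cannot be told apart from the knockdown. Nothing in the labels says that the 3 arrays of a group came from separate cultures, so P values measure only the spread between these arrays.

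In this network MYC, or one of its relatives MYCN and MYCL, pairs with MAX and activates genes for growth, ribosome production and metabolism through the E-box CACGTG. MXI1, MXD1, MXD3, MXD4 and MNT compete for MAX and bring the SIN3 and NCOR corepressors to the same sites. MLX is the partner of MondoA and ChREBP, which sense sugars, and can also pair with MXD1, MXD4 and MNT. HIF-1 is known to act on the network in hypoxia, and MXI1 is one of its known target genes.

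Values are log2 normalised spot intensities, in which 1 unit is a doubling, and a fold change is the difference of group means on that scale. Intensities of different probes are not compared with each other. A gene was called changed at an unadjusted two-sided P of 0.05 or less in limma, the threshold the study used, and P values printed are those adjusted over all genes or probes tested by the Benjamini-Hochberg method. The targeted genes themselves were lower in their own knockdown, with log2 fold changes of -1.27 for GATA3 and -2.32 for HIF1A (past the unadjusted threshold, limma adjusted P = 1.00 and adjusted P = 0.295) and no overlap with si-Control in either case. With the slide as a block HIF1A passed after adjustment as well (adjusted P = 0.0416). Arrays with replicate number 1, 2 and 3 lay on slides 1, 2 and 3, each slide holding 1 array of every group, and differences within slides are given for the members that changed. The median spot intensity ranged from 992.5 to 3560, and 91 to 5278 spots of an array were non-uniform. Spots well above background made up 86.3% to 88.5% in si-Control, 74.3% to 83.7% in GATA3 knockdown and 80.8% to 87.5% in HIF-1α knockdown. All GATA3 knockdown arrays thus lay below all si-Control arrays in this share. Its part in the comparisons was not tested. Of 10 markers of squamous epithelium 8 were well above background on all 9 arrays and KRT5 on none. Of the markers of other cell types, 2 of 6 for fibroblasts, 3 of 4 for endothelium and 3 of 3 for leukocytes were also well above background on all 9.

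Among the 10 members, MXI1 was lower and MXD3 higher in HIF-1α knockdown than in si-Control, at the unadjusted threshold only. MAX was higher in GATA3 knockdown, at that threshold only. With 1 array left out, the call held in 9 of 9 fits for MXI1, 5 for MXD3 and 3 for MAX. MYC itself passed the test in neither knockdown. In GATA3 knockdown against si-Control 1 of 10 members was called, where 2.97% of all genes tested were called. In HIF-1α knockdown against si-Control 2 of 10 were called, where 5.23% of all genes were. Between the 2 knockdowns 3 of 10 members were called, MXI1 and MAX higher and MXD3 lower in GATA3 knockdown, where 12% of all genes were called. These shares of all genes moved by over 1.5 times when 1 array was left out. They ran from 2.00% to 12.7% in GATA3 knockdown, highest without the third si-Control array, from 2.98% to 10.1% in HIF-1α knockdown, highest without the first si-Control array, and from 5.69% to 20.5% between the knockdowns, highest without the second GATA3 knockdown array. No member passed after adjustment, which 0.00422% of all genes did between the knockdowns and none against si-Control. The smallest adjusted P values of a member were 1.00, 0.792 and 0.277 in the 3 comparisons. The comparisons share arrays, so they are not independent of each other.

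**Figure D1:**
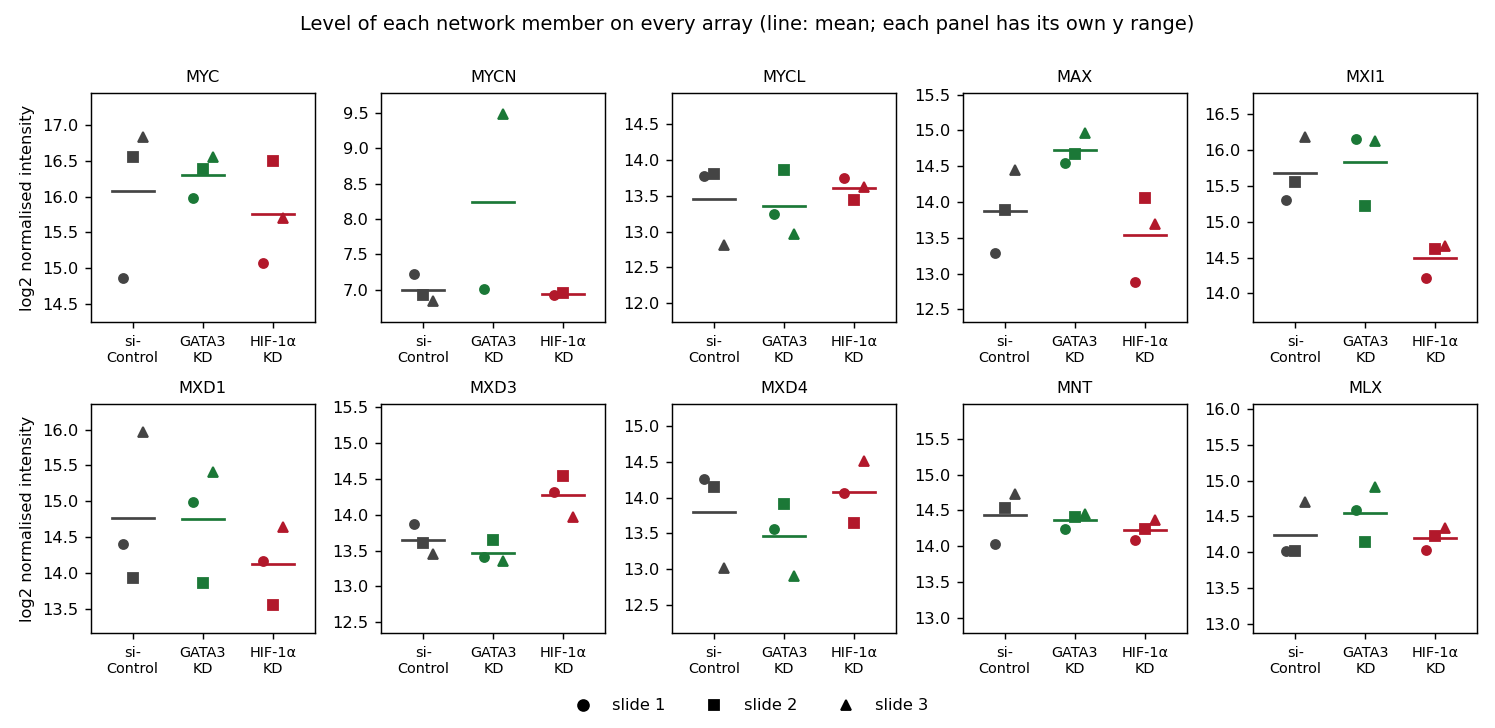
Log2 normalised intensity of each of the 10 members (brightest probe) on the 9 arrays, by group, with points shaped by slide and a line at the group mean; missing points are spots marked as non-uniform. The 3 HIF-1α knockdown arrays of MXI1 lie between 14.22 and 14.66, below all si-Control and GATA3 knockdown arrays, whereas the MYC groups overlap.

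The MYC family came first in the order of roles. MYC, the founding activator, was measured by 1 probe printed on 10 spots. Its level was 14.86, 16.56 and 16.83 on the si-Control arrays, 15.98, 16.38 and 16.55 in GATA3 knockdown, and 15.07, 16.50 and 15.70 in HIF-1α knockdown. The groups overlapped, with the lowest value on the first si-Control array. Its log2 fold changes were 0.22 (95% interval -0.94 to 1.38) for GATA3 and -0.33 (-1.49 to 0.84) for HIF-1α knockdown, neither past the test. The 10 spots of MYC on an array differed by an SD of 0.07 to 0.29, and the 3 arrays of a group by an SD of 1.07 for si-Control, 0.30 for GATA3 and 0.71 for HIF-1α knockdown. Without the first si-Control array, MYC was lower in HIF-1α knockdown by a log2 fold change of -0.94 and passed the unadjusted threshold (adjusted P = 0.474).

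MYCN, best known from neuroblastoma, was near background. Its probe was well above background on 0 of 3 si-Control arrays, 2 of 3 after GATA3 knockdown and 1 of 3 after HIF-1α knockdown. The measured levels were 7.22, 6.93 and 6.84 in si-Control, 7.01 and 9.48 in GATA3 knockdown, and 6.92 and 6.95 in HIF-1α knockdown, with 1 array missing from each knockdown because its spot was non-uniform. A single array, the third of GATA3 knockdown, stood above the others. The test did not call the difference of GATA3 knockdown from si-Control (means 8.24 and 6.997, log2 fold change 1.25, adjusted P = 1.00), which rested on that array: the log2 fold change was 0.01 without it and 2.48 without the first GATA3 knockdown array, when it alone was left and the unadjusted threshold was passed. The difference was 0.97 and not called with non-uniform spots kept. It was called with 75th percentile scaling in place of quantile normalisation (1.33, adjusted P = 1.00), with the processed signal (2.67, adjusted P = 0.520) and in the authors' table (2.62, adjusted P = 0.792).

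MYCL, the family member first found in lung cancer, had levels of 13.77, 13.80 and 12.81 in si-Control, 13.24, 13.86 and 12.96 in GATA3 knockdown, and 13.74, 13.45 and 13.63 in HIF-1α knockdown. These groups overlapped, and the log2 fold changes of -0.11 and 0.15 did not pass the test. Its second probe, for the transcript NM_001033081, was dim and well above background on 5 of the 9 arrays, with log2 fold changes of -0.03 and 0.47 that did not pass either.

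MAX is the common partner that MYC and its antagonists need to bind DNA. On its brightest probe, for NM_197957, the level was 13.29, 13.89 and 14.44 in si-Control, 14.54, 14.67 and 14.96 in GATA3 knockdown, and 12.88, 14.05 and 13.69 in HIF-1α knockdown. Every GATA3 knockdown array was above every array of the other 2 groups. MAX rose 1.80-fold in GATA3 knockdown, from 13.88 ± 0.58 to 14.72 ± 0.22 (SD, n = 3 each). The log2 fold change was 0.85 with an SE of 0.37 (adjusted P = 1.00), and within slides it was 1.24, 0.78 and 0.52. With the slide as a block the SE was 0.27, and MAX passed the unadjusted threshold as well (limma adjusted P = 0.921). MAX in HIF-1α knockdown had a log2 fold change of -0.33 that did not pass (adjusted P = 0.833). GATA3 knockdown stood 2.27-fold above HIF-1α knockdown (log2 fold change 1.18, SE 0.37, adjusted P = 0.351).

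The other 2 probes of MAX lost many spots to the non-uniformity flag, and the 3 probes did not share 1 pattern. In the main fit the probe for NM_145113 was measured on no HIF-1α knockdown array. Each transcript had 1 probe, and a difference between transcripts was not tested. With those spots kept, a setting chosen after the data were seen, the probe for NM_145114 read 9.65, 9.55 and 9.99 in si-Control, 10.51, 9.92 and 10.91 in GATA3 knockdown, and 9.49, 9.48 and 9.53 in HIF-1α knockdown. That probe was higher in GATA3 knockdown by a log2 fold change of 0.72, past the unadjusted threshold (adjusted P = 1.00), although the second GATA3 knockdown array lay below the third si-Control array. The probe for NM_145113 read 13.67, 13.34 and 12.32 in si-Control and 13.00, 13.44 and 12.88 in GATA3 knockdown, with no shift between the groups (log2 fold change -0.00, adjusted P = 1.00). Between the knockdowns, with those spots kept, the NM_145113 probe had a log2 fold change of -0.15 and did not pass (limma adjusted P = 0.851). The NM_145114 probe had 0.95 there and passed the unadjusted threshold (limma adjusted P = 0.324). With those spots left out again, the probes left on each array were averaged. MAX then had a log2 fold change of 0.37 after GATA3 knockdown and 0.66 between the knockdowns. Neither passed. The probes lie at different intensities, and those averaged were not the same on every array. Only the brightest was left on the first si-Control and the second GATA3 knockdown array, and all 3 on the third si-Control array. Both values therefore also reflect which spots were flagged. The call on the brightest probe was lost when any GATA3 knockdown array was left out, when the first or second si-Control array was, or when the third HIF-1α knockdown array was. The log2 fold change then lay between 0.56 and 0.94, lowest without the first si-Control array.

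MXI1, an antagonist that takes MAX away from MYC, was the member that changed most in HIF-1α knockdown. Its brightest probe, for NM_130439, read 15.31, 15.55 and 16.18 in si-Control and 14.22, 14.63 and 14.66 in HIF-1α knockdown, and 16.16, 15.22 and 16.13 in GATA3 knockdown. All 3 HIF-1α knockdown arrays lay below all 6 others. MXI1 fell 2.27-fold in HIF-1α knockdown, from 15.68 ± 0.45 to 14.50 ± 0.25 (SD, n = 3 each), a log2 fold change of -1.18 (SE 0.34, adjusted P = 0.792). Within slides the differences were -1.10, -0.93 and -1.53. In a bulk sample, fewer cells with the transcript and less of it per cell cannot be told apart. MXI1 in GATA3 knockdown had a log2 fold change of 0.16 (95% interval -0.59 to 0.90), with differences of 0.85, -0.33 and -0.05 within slides. The direct comparison of the 2 knockdowns gave a 2.53-fold difference (log2 fold change 1.34, SE 0.34), so that the MXI1 response to HIF-1α knockdown differed from that to GATA3 knockdown at the study's threshold and not after adjustment (adjusted P = 0.277).

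The second NM_130439 probe of MXI1 read 13.09, 13.36 and 14.49 in si-Control and 11.79, 12.19 and 12.50 in HIF-1α knockdown, a 2.81-fold fall (log2 fold change -1.49, SE 0.44, adjusted P = 0.818). The probe for the other transcript, NM_005962, read 11.48, 11.85 and 12.48 in si-Control and 10.72, 11.44 and 11.34 in HIF-1α knockdown. It too showed no overlap, but its log2 fold change of -0.77 did not pass the test (SE 0.37, adjusted P = 0.828). With the slide as a block it passed the unadjusted threshold (adjusted P = 0.538). In GATA3 knockdown the 3 probes had log2 fold changes of 0.16, 0.24 and -0.28, none past the test. Whether the transcripts responded differently was not tested. MXI1 was called in HIF-1α knockdown when any of the 9 arrays was left out, with log2 fold changes from -1.37 to -0.93.

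**Figure D2:**
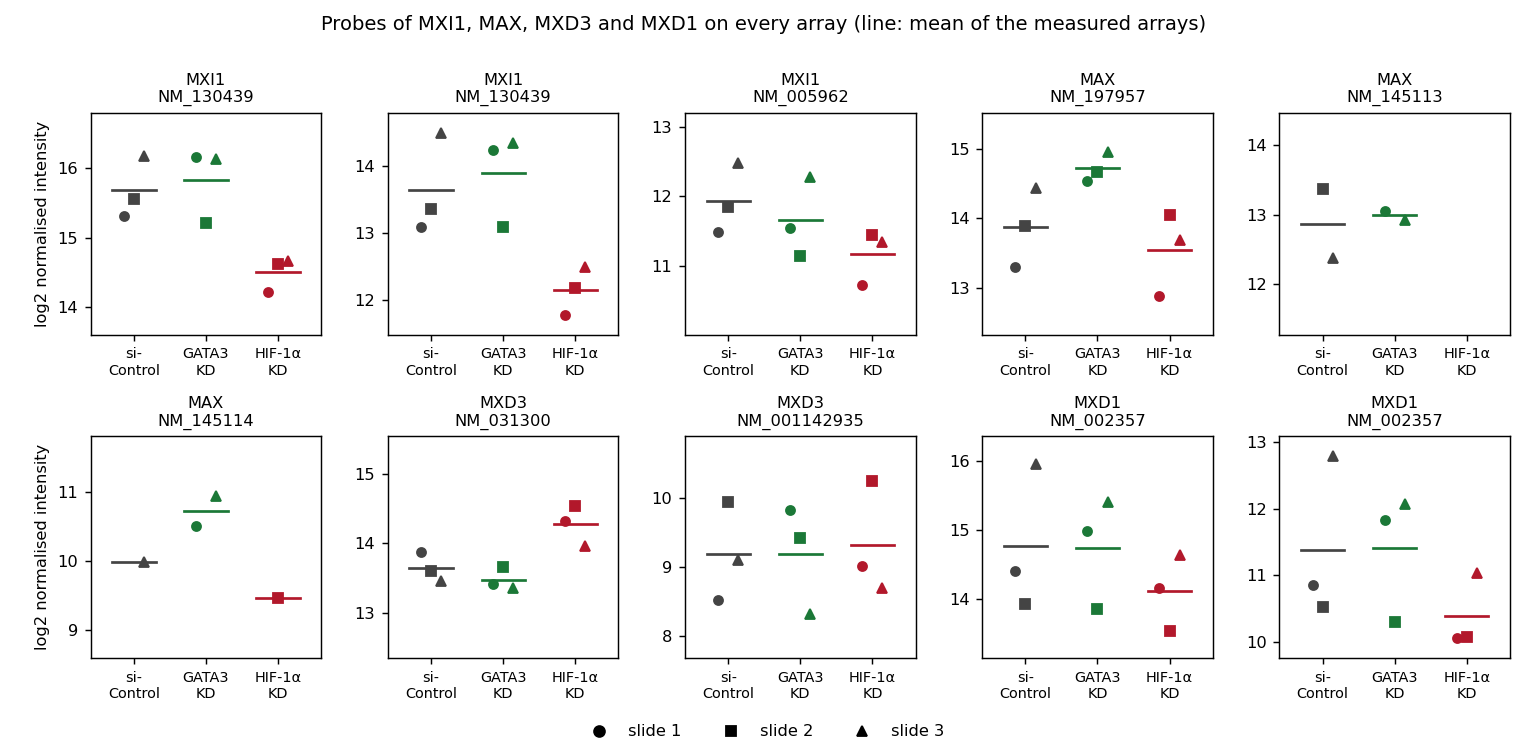
Log2 normalised intensity on every array for each probe of MXI1, MAX, MXD3 and MXD1, titled with the probe's RefSeq transcript, with points shaped by slide and a line at the mean of the arrays measured. The 3 probes of MXI1 are all lower in HIF-1α knockdown than in si-Control with no overlap, and the probes of MAX and of MXD3 do not share 1 pattern.

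RefSeq lists 3 start sites for MXI1 on chromosome 10, and the 250 bases before each were searched on both strands for the core letters of a HIF site, ACGTG, or its variant with G in front, GCGTG. The windows are shown because MXI1 was the member that fell with HIF-1α. The first start site has no match, the second has 2 and the third has 1. Both matching stretches follow, on the plus strand of GRCh38.p14 and with the matched letters, in either orientation, in capitals; they lie at chr10:110210084-110210142 and chr10:110225845-110225889.
MXI1 start site 2: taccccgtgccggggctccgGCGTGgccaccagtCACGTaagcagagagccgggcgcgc
MXI1 start site 3: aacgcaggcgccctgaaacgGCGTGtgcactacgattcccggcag
Such letters are common. Of 35116 RefSeq promoter windows of the same length 43.2% hold at least 1 match, and 7 of the 12 windows listed for members do, which belong to 6 of 9 genes. A match is a description of letters and shows no binding.

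MXD1, MXD3 and MXD4 are the other MAX-binding antagonists, MXD1 being linked to terminal differentiation of epithelium. MXD1 read 14.41, 13.93 and 15.96 in si-Control, 14.98, 13.86 and 15.40 in GATA3 knockdown, and 14.17, 13.55 and 14.64 in HIF-1α knockdown. The groups overlapped. The third slide held the highest and the second the lowest value of every group. In HIF-1α knockdown MXD1 had a log2 fold change of -0.65 that did not pass (SE 0.56, adjusted P = 0.823). The difference had the same sign on all 3 slides, -0.24, -0.38 and -1.32, and passed the unadjusted threshold with the slide as a block (adjusted P = 0.590). The second MXD1 probe had differences of -0.79, -0.44 and -1.75 on the slides, a log2 fold change of -0.99 that passed with the slide as a block and not without it (adjusted P = 0.536 and adjusted P = 0.828). The 2 probes had log2 fold changes of -0.02 and 0.02 for GATA3 knockdown. Between the knockdowns the second probe had a log2 fold change of 1.01. It passed the unadjusted threshold with the slide as a block and not without it (limma adjusted P = 0.209 and adjusted P = 0.474).

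MXD3, the family member linked to dividing cells, went the other way in HIF-1α knockdown. It read 13.87, 13.60 and 13.46 in si-Control, 13.41, 13.65 and 13.35 in GATA3 knockdown, and 14.32, 14.54 and 13.97 in HIF-1α knockdown. The HIF-1α knockdown arrays all lay above the 6 others. MXD3 rose 1.55-fold in HIF-1α knockdown, from 13.64 ± 0.21 to 14.28 ± 0.29 (SD, n = 3 each), a log2 fold change of 0.63 (SE 0.24, adjusted P = 0.823), with 0.45, 0.94 and 0.51 within slides. After GATA3 knockdown the log2 fold change was -0.17, short of the test, and MXD3 was 1.75-fold lower there than after HIF-1α knockdown (log2 fold change -0.80, SE 0.24, adjusted P = 0.339). The dim second probe, for NM_001142935, did not pass in HIF-1α knockdown (log2 fold change 0.13, adjusted P = 0.954). The rise in HIF-1α knockdown was no longer called without the second or the third si-Control array or without the first or second HIF-1α knockdown array (log2 fold change 0.50 to 0.61).

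MXD4 read 14.26, 14.14 and 13.01 in si-Control, 13.56, 13.92 and 12.90 in GATA3 knockdown, and 14.06, 13.65 and 14.51 in HIF-1α knockdown. These groups overlapped, and the log2 fold changes of -0.34 and 0.27 did not pass the test. The slides disagreed in HIF-1α knockdown, with differences of -0.20, -0.49 and 1.49.

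MNT, a larger antagonist present in most cells, was among the steadiest members on its brightest probe. That probe read 14.04, 14.53 and 14.73 in si-Control, 14.25, 14.40 and 14.45 in GATA3 knockdown, and 14.09, 14.24 and 14.37 in HIF-1α knockdown. The groups overlapped, with log2 fold changes of -0.06 (95% interval -0.61 to 0.48) and -0.20 (-0.75 to 0.34). The second MNT probe was lower in HIF-1α knockdown than in si-Control on every slide, by -0.32, -0.34 and -0.38. Its groups did not overlap there, as for 13.3% of all genes measured on all 6 arrays. The log2 fold change of -0.35 did not pass (limma adjusted P = 0.828). Between the knockdowns the second probe was 1.51-fold higher for GATA3 (log2 fold change 0.60, SE 0.23, adjusted P = 0.382), whereas the brightest probe had 0.14 and did not pass.

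MLX, the partner of MondoA and ChREBP, read 14.02, 14.02 and 14.70 in si-Control, 14.58, 14.15 and 14.92 in GATA3 knockdown, and 14.03, 14.23 and 14.34 in HIF-1α knockdown. Its log2 fold changes of 0.30 and -0.05 did not pass. The second MLX probe had 0.17 and -0.14, also short of the test.

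**Figure D3:**
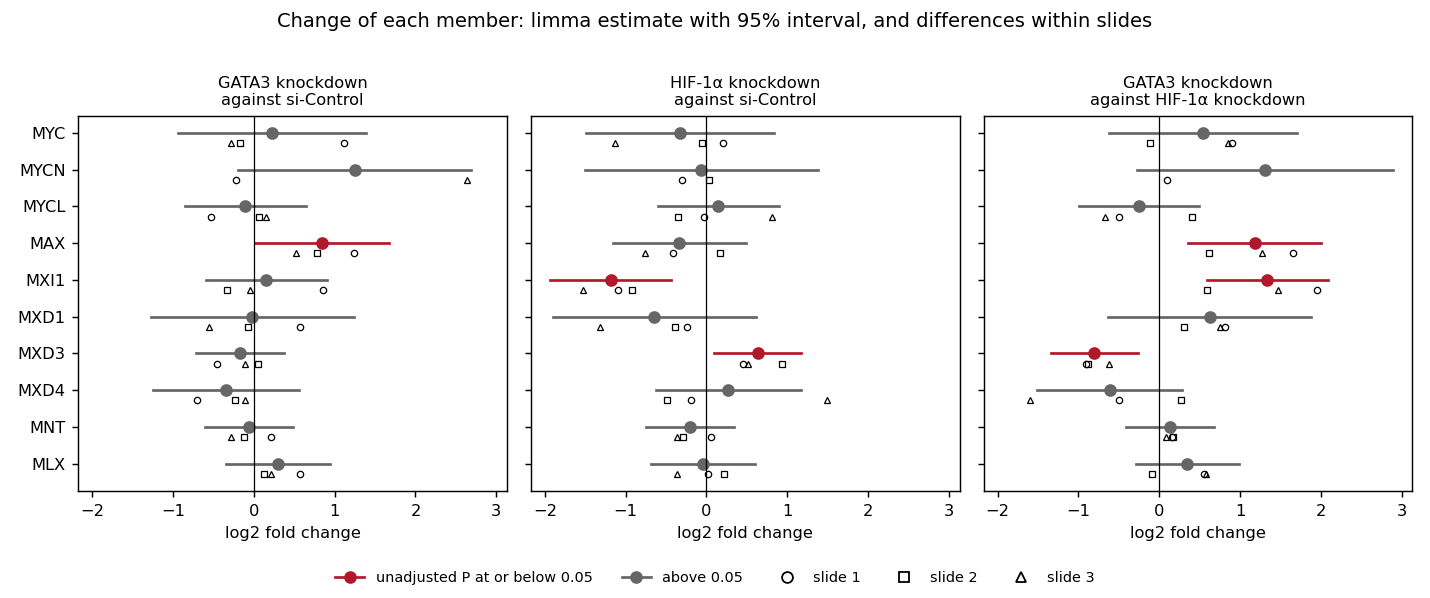
Log2 fold change of each member in the 3 comparisons, with the limma estimate as a filled point, its 95% interval as a bar, and the differences within slides as open symbols; red marks an unadjusted P of 0.05 or less. Red marks MAX in GATA3 knockdown, MXI1 and MXD3 in HIF-1α knockdown, and these 3 genes between the knockdowns.

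Over all probes of the members the counts were of the same order. In GATA3 knockdown 1 of 20 probes was called (3.14% of all probes), in HIF-1α knockdown 3 of 19 (5.33%), and between the knockdowns 6 of 19 (12.3%). Of the 9 members measured on all 6 arrays of a comparison, the groups did not overlap for 1 in GATA3 knockdown, where 6.03% of all such genes did not, for 2 in HIF-1α knockdown (13.3%) and for 3 between the knockdowns (22.8%). The median log2 fold change over the 10 members was 0.07 in GATA3 knockdown, -0.13 in HIF-1α knockdown and 0.45 between them, where the median over all genes was -0.02, -0.01 and 0.00.

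The E-box CACGTG, the site that MYC and MAX bind, lies in 3 of the 12 RefSeq windows of 250 bases before a start site of 9 members, and in 6.34% of all 35116 windows. The 3 belong to MXD4, MNT and MLX, which are shown because members of the network may carry the network's own site. They are given in the direction of the gene on GRCh38.p14, with the E-box in capitals, and lie at chr4:2262322-2262359 (minus strand), chr17:2401228-2401273 (minus strand) and chr17:42567030-42567075 (plus strand).
MXD4: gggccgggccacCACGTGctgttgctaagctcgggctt
MNT: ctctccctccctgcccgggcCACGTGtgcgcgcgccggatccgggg
MLX: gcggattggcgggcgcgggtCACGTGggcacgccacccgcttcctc
The letters CACGTG contain ACGTG on both strands, so these windows also count among those with a HIF core. None of the 3 genes passed the test in any comparison on its brightest probe. No member's window holds AGATAA, a form of the site that GATA factors bind, on either strand, and 9.17% of all windows do.

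Partners and known targets of the network were then read from lists of genes, in which every gene said to be higher or lower, to rise or to fall passed the unadjusted threshold. None passed after adjustment: the adjusted P values of the genes named were 1.00 in GATA3 knockdown, 0.543 to 0.823 in HIF-1α knockdown and 0.277 to 0.390 between the knockdowns. None of the remaining partners, MGA, MLXIP (MondoA) and MLXIPL (ChREBP), passed in any comparison. MLXIP had log2 fold changes of 0.20 and -0.05 in GATA3 and HIF-1α knockdown, MGA 0.09 and 0.47, and MLXIPL -0.33 and 0.10.

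Of 18 genes of the SIN3-HDAC and NCOR corepressors, through which MXI1 and the MXD proteins repress, 4 were lower in HIF-1α knockdown and 0 higher, where 3.28% of all genes were lower and 1.95% higher. SAP30 and SAP18, both subunits of the SIN3 complex, fell by 1.06 and 0.89 on the log2 scale. ARID4B, another SIN3-associated protein, fell by 0.88. The median of the list was -0.14. In GATA3 knockdown limma called 0 of 18, and the median was 0.08. Between the knockdowns 5 were higher in GATA3 knockdown, where 6.93% of all genes were. Among them were SIN3A, the scaffold of the complex (log2 fold change 1.29), SAP30 (1.12) and the chromatin reader ING1 (1.15). The count in HIF-1α knockdown was 1 without the first HIF-1α knockdown array or the third si-Control array, 2 without the second of either group, and 2 in the authors' table.

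The MYC coactivators gave 2 calls of 16 measured in GATA3 knockdown, where 1.59% of all genes were higher and 1.38% lower. RUVBL1, an ATPase of chromatin remodelling complexes, rose by a log2 fold change of 1.26 (SE 0.27), and the acetyltransferase KAT2B fell by 0.84 (SE 0.31). None of the 16 was called in HIF-1α knockdown. RUVBL1 was also higher between the knockdowns (0.99). With the slide as a block 3 of the 16 were called in GATA3 knockdown and 3 between the knockdowns. Of 14 measured genes of MYC turnover, limma called 0 in GATA3 knockdown. Between the knockdowns USP28, a deubiquitinase that spares MYC from degradation, was higher in GATA3 knockdown (1.85), as was the kinase AURKA (1.04). In that comparison 6.93% of all genes were higher.

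Targets that MYC is known to activate were more often higher than lower when GATA3 knockdown was set against HIF-1α knockdown. This was not particular to them. Median log2 fold changes there were 0.36 for the corepressors, 0.27 for the coactivators and 0.29 for MYC turnover. They were 0.58 for the glycolytic genes and 0.21 for the MLX targets, but -0.09 for the MYC-repressed genes and -0.38 for the remaining partners. Of 27 genes of ribosome biogenesis, 6 were higher and 0 lower between the knockdowns, where 6.93% of all genes were higher and 5.05% lower, with a median log2 fold change of 0.51. PPAN, DDX18 and PES1, all needed to build the large ribosomal subunit, were higher by 1.47, 1.30 and 0.67. Against si-Control the same list gave 1 higher in GATA3 knockdown, RRS1 (1.32), with a median of 0.32, where 1.59% of all genes were higher. In HIF-1α knockdown 2 were lower, PPAN (-1.18) and the nucleolar methyltransferase FBL (-0.77), with a median of -0.20, where 3.28% of all genes were lower. With the slide as a block the called genes numbered 11 between the knockdowns, 5 for GATA3 and 4 for HIF-1α knockdown. Between the knockdowns 1 was called without the third GATA3 knockdown array or without the first HIF-1α knockdown array, and 10 without the first si-Control array. In GATA3 knockdown 0 were higher without the first si-Control array and 7 without the third, with medians of 0.08 and 0.61. In HIF-1α knockdown the 2 lower became 7 without the first si-Control array (median -0.54), and 0 without the third (median 0.05) or without the first HIF-1α knockdown array (median 0.01).

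Of 27 MYC-activated genes of metabolism and growth, 4 were higher and 0 lower in GATA3 knockdown, with a median of 0.46. In that comparison 1.59% of all genes were higher and 1.38% lower. ODC1, the rate-limiting enzyme of polyamine synthesis, rose 3.13-fold (log2 fold change 1.65, SE 0.65). PPAT, the first enzyme of purine synthesis, rose by a log2 fold change of 0.64 and the nucleoside diphosphate kinase NME1 by 0.71. In HIF-1α knockdown the phosphatase CDC25A was higher (1.39) and SHMT2, of mitochondrial folate metabolism, lower (-0.79), with a median of 0.03. There 1.95% of all genes were higher and 3.28% lower. Between the knockdowns 7 were higher and 1 lower in GATA3 knockdown, where 6.93% of all genes were higher and 5.05% lower. They were led by PAICS, of purine synthesis (1.24), the chaperonin HSPE1 (0.92) and, lower, the cyclin CCND2 (-0.84). With 1 array left out the 7 higher ran from 2 to 11, at 2 without the second si-Control, the first or the third GATA3 knockdown array or the first or the third HIF-1α knockdown array, and at 11 without the third si-Control array, with medians of 0.24 to 0.64, and 11 of the list were called with the slide as a block. In HIF-1α knockdown 4 were lower and 0 higher without the first si-Control array (median -0.43). The 4 higher in GATA3 knockdown became 0 without the first si-Control or the third GATA3 knockdown array and 10 without the third si-Control array, and were 2 in the authors' table. With the slide as a block 6 of the list were called in GATA3 knockdown.

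Of 9 measured glycolytic genes that both MYC and HIF-1 are known to bind, 3 were lower in HIF-1α knockdown and 0 higher, where 3.28% of all genes were lower. All 9 had a negative log2 fold change, with a median of -0.38. HK2, which commits glucose to glycolysis, fell 2.82-fold, from a mean of 16.49 to 15.00 (log2 fold change -1.49, SE 0.39). PGK1 fell by 0.99 and TPI1 by 0.79 on the log2 scale. In GATA3 knockdown 0 of 9 were called in limma with a median of -0.02, HK2 having a log2 fold change of 0.07 and PGK1 -0.19. Between the knockdowns 4 of 9 were higher in GATA3 knockdown, including HK2 (1.57), PGK1 (0.80) and TPI1 (0.58), where 6.93% of all genes were higher. The count in HIF-1α knockdown was 3 or 4 without any 1 array, and that between the knockdowns ran from 2 to 5, at 2 without the second or the third GATA3 knockdown array or the first HIF-1α knockdown array.

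Of 13 genes that MYC is known to repress, 3 were lower and 0 higher in HIF-1α knockdown: NDRG1, also known as induced by hypoxia (-0.85), the cell cycle inhibitor CDKN1B (-0.95) and the stress gene GADD45A (-1.32). Of all genes 3.28% were lower and 1.95% higher in HIF-1α knockdown. The median over the list was -0.00, so the other members lay on both sides. In GATA3 knockdown 0 of 13 were called, with a median of -0.10. Between the knockdowns GADD45A (1.63) and NDRG1 (0.64) were higher in GATA3 knockdown, where 6.93% of all genes were. Without the third si-Control array 1 of the 3 was called in HIF-1α knockdown. Of 6 targets of MLX with MondoA or ChREBP, 0 were called against si-Control. ARRDC4 (1.47) and KLF10 (1.06) were higher in GATA3 than in HIF-1α knockdown, beside the same 6.93% of all genes. With the slide as a block 1 gene each of the corepressor, MYC turnover, MYC-repressed and MLX lists was called in GATA3 knockdown, where none was without it, and 2 of the MLX list in HIF-1α knockdown.

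**Figure D4:**
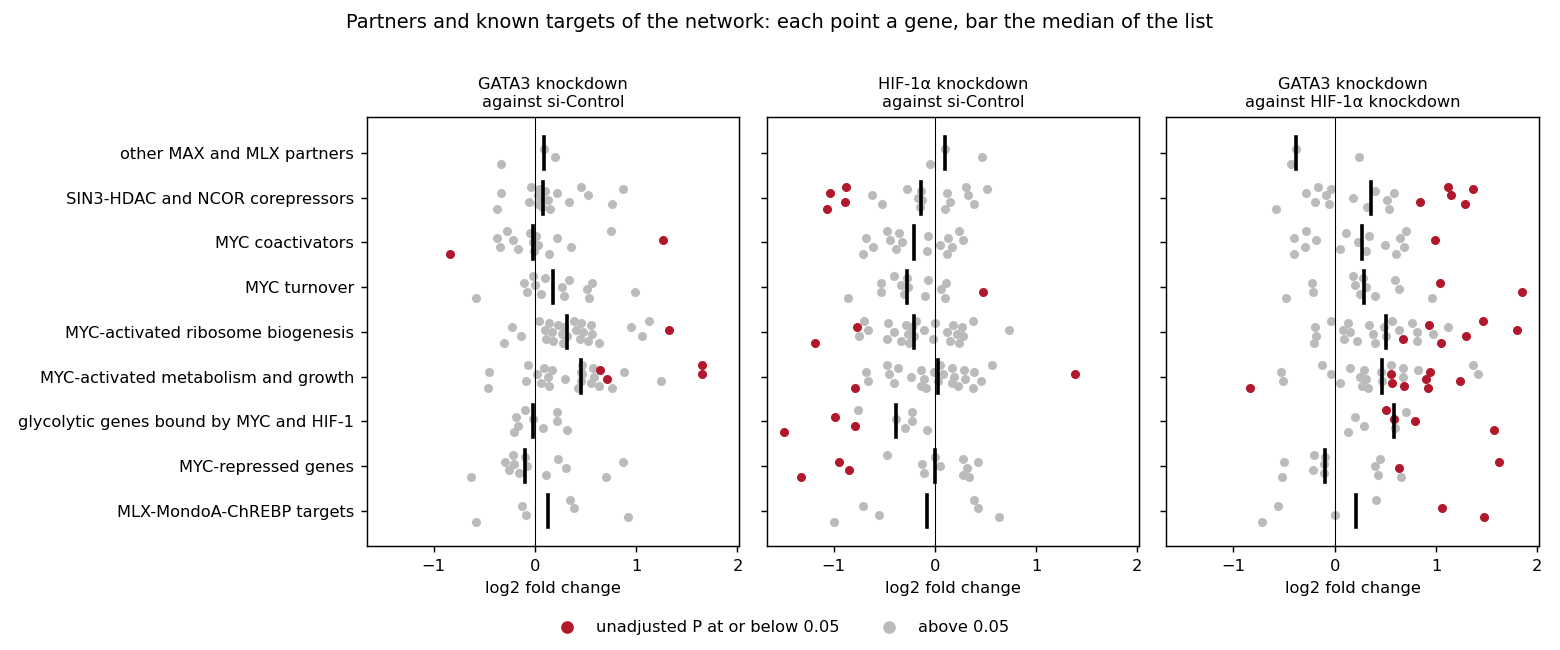
Log2 fold change of each gene in the lists of partners and known targets in the 3 comparisons, with red points at an unadjusted P of 0.05 or less and a black bar at the median of the list. In HIF-1α knockdown the 9 glycolytic genes all lie below 0. Between the knockdowns the lists of ribosome biogenesis and of metabolism have medians of 0.51 and 0.46, the glycolytic list 0.58 and the corepressors 0.36.

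Markers of cell types moved with the comparison of the knockdowns. Of the 10 squamous markers, 3 were lower in GATA3 than in HIF-1α knockdown and 0 higher, where 5.05% of all genes were lower, with a median log2 fold change of -0.55. That count was 0 without the first HIF-1α knockdown array, and 1 without the third or without the first or second GATA3 knockdown array. All 10 had a negative log2 fold change in GATA3 knockdown against si-Control (median -0.33), and 0 were called. The summed intensity of the list ranged from 666750 to 1129004 in si-Control, 445150 to 879043 in GATA3 knockdown and 734171 to 1121042 in HIF-1α knockdown. Between the knockdowns 1 of 3 leukocyte markers was lower in GATA3 knockdown (median -0.52, all 3 negative), 1 of 6 fibroblast markers was (median -0.17) and 0 of 4 endothelial markers were (median -0.38). The part of these in the results above was not tested.

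The genes whose levels over the 9 arrays ran most like those of MXI1 and of MYC were picked by the smallest root mean square difference of the centred profiles, among 15912 genes well above background and measured on all arrays. For MXI1, whose own SD over the arrays was 0.73, the nearest included SSX1, TMEM45A, TMEM263 and CERT1, with differences of 0.11 to 0.13. For MYC, with an SD of 0.70, they were MED7, TMA16, ZNF234, ZNF772 and FOSL2, with differences of 0.11 to 0.17. All points share the 9 arrays and their slides, and the likeness is a description.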

How the data were processed

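RNA of OEC-M1 cells was labelled in 1 colour and hybridised to Agilent 8-array slides; per the file headers the authors deposited scanner files of Agilent Feature Extraction 10.5.1.1 with an intensity and a local background for each spot, and a log2 table, in which 99.8% to 99.9% of the values equal the log2 processed signal less a constant per array (tolerance 0.001). The probe design in the headers names hg19, no coordinates of which were used.

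Median spot and background intensities were corrected by normexp (offset 50), control spots and spots marked non-uniform were left out, and arrays were quantile-normalised as log2 values. Spots of a probe were averaged, and a gene was represented by its brightest probe. Probes were named by matching RefSeq accessions to symbols (GRCh38.p14; 31104 of 58201 probes matched), and other probes kept the file's name. Of the listed genes, ACTL6A, USP36, ALDOA, CD68 and LYZ had no matched probe. limma 3.58.1 in R 4.3.3 was fitted to all 9 arrays and 3 groups over all genes, with an unadjusted two-sided P of 0.05 as in the study and Benjamini-Hochberg values beside it. No spot was saturated; the number of arrays, 3 a group, limits the precision.

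Members and lists were chosen with earlier results of these data known. The text names all members, targeted genes, lists of up to 3 genes in full, and otherwise up to 3 called genes of smallest P per list and comparison, if well above background on each array of 1 group or more; other list counts are unnamed. File headers tie the replicate number to the slide and scan. Deviations from the group means of same-numbered arrays correlated at 0.22, 0.59 and 0.72 between GATA3 knockdown and si-Control, at 0.61, 0.12 and 0.07 between HIF-1α knockdown and si-Control, and at 0.34, -0.19 and 0.10 between the knockdowns. By the criterion of over 0.1 for every pair the numbers pair the arrays in the first comparison and not in the others. The main fit has no block, so its SEs and P values leave out the pairing in GATA3 knockdown against si-Control. Blocked values are given for MAX in that comparison and for some of the results whose call they change. Promoter windows came from RefSeq for 9 members; none was listed for MYC. The fit was tested on simulated data.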

Additional observations from a re-analysis of the deposited data

Results flagged for a closer look

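The responses of 3 members to the 2 knockdowns differed at an unadjusted P of 0.05 in the direct comparison, and none did after adjustment over all genes. With HIF-1α knockdown as the base, GATA3 knockdown had log2 fold changes of 1.34 for MXI1, 1.18 for MAX and -0.80 for MXD3 on the brightest probe. In each case the arrays of the 2 groups did not overlap, which was also so for 22.8% of all genes measured on all 6 arrays. Of all genes tested 12% were called in the same comparison. With the mean of a gene's probes MAX (log2 fold change 0.66) and MXD3 (-0.47) were no longer called. For MAX the probes averaged were not the same on every array, because flagged spots were missing. The dim second probe of MXD3 had -0.13 and did not pass.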

How the results depend on the processing

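MXI1 was called in HIF-1α knockdown and between the knockdowns under each of the 11 other settings fitted to it and without each array, with log2 fold changes of -1.40 to -1.15 and 1.19 to 1.63 under those settings and adjusted P values of 0.396 to 0.835 and 0.124 to 0.413. After Benjamini-Hochberg adjustment 0 members were called in each comparison. With the processed signal and in the authors' log2 table, 1 member was called in HIF-1α knockdown (MXI1, without MXD3), and 1 in GATA3 knockdown (MYCN in place of MAX). With 75th percentile scaling after normexp 2 were called in GATA3 knockdown (MAX and MYCN) and 1 in HIF-1α knockdown; this scaling moved the median of all genes to -0.10 in HIF-1α knockdown and 0.15 between the knockdowns. With the mean of a gene's probes the counts were 0 in GATA3 knockdown, 1 in HIF-1α knockdown and 1 between the knockdowns (MXI1). The mean for MAX took different probes on different arrays, because flagged spots were missing. With 1 array left out the counts ranged from 0 to 1, 1 to 3 and 3 to 4 in the 3 comparisons. With the replicate number, which is the slide, as a block the counts were 1, 3 and 3, MXD1 joining in HIF-1α knockdown (adjusted P = 0.590), and the shares of all genes called rose to 4.99%, 8.41% and 18.7% in the 3 comparisons. In GATA3 knockdown the share of all genes was 6.39% with the processed signal and 6.05% in the authors' table. Kept non-uniform spots, other background settings, a filter on dim probes, separate fits and a trended prior left the counts within 1.5 times. The cause of these differences was not tested. No member reversed its sign while called. Signal over background limits MYCN and the second probes of MYCL and MXD3.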
